A study of Homo sapiens with 18 samples.

Results

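The 10 genes described here, all of the NF-κB pathway, were followed through irradiation-induced senescence, mitochondrial depletion and 2 kinds of add-back in IMR90 cells. They were taken by symbol from the table of 57500 genes. They were split into 5 subunits of the transcription factor (NFKB1, NFKB2, REL, RELA and RELB) and 5 inhibitors (NFKBIA, NFKBIB, NFKBIE, NFKBIZ and TNFAIP3). NFKBIZ is grouped with the inhibitors by gene family, and whether it acted as one in these cells was not tested. All 10 genes were found, and all 10 were among the 16994 genes that passed the filter on low counts. IMR90 cells are human fibroblasts, and poly(A) RNA was sequenced from 18 libraries, 3 in each of 6 groups. The groups were proliferating cells (Prol), cells made senescent by irradiation (Sen(IR)), and 4 groups of irradiated cells exposed to CCCP, a mitochondrial uncoupler. Of these 4, one received nothing further (Sen(IR)+CCCP), one acetate, one mitochondrial DNA (mtDNA), and one both agents, here called the combination. The study's methods describe cells engineered so that CCCP triggers clearance of mitochondria, and mtDNA delivered by transfection. In them acetate was given repeatedly and mtDNA was transfected later, and the labels name no group given transfection reagent alone. Irradiation was thus shared by 5 groups and CCCP by 4, and no group received acetate or mtDNA without CCCP. Exposure to CCCP and loss of mitochondria always came together, so they cannot be told apart. Below, "depletion" names the comparison of Sen(IR)+CCCP with Sen(IR). The study describes its cell culture experiments as repeated independently, but the labels tie no library to a culture, so the p-values measure the spread between libraries.

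NF-κB proteins bind DNA as dimers of RELA, RELB, REL and the processed forms of the NFKB1 and NFKB2 precursors (p50 and p52). In resting cells the IκB proteins hold dimers in the cytoplasm, and the IκB kinase (IKK) complex marks them for destruction when receptors of the TNF, interleukin-1 and Toll-like families are engaged. Freed dimers switch on inflammatory genes and also genes of their own brakes, such as NFKBIA (IκBα) and TNFAIP3 (A20), which makes transcripts of these inhibitors a common readout of the pathway. In senescent fibroblasts NF-κB is known as a main driver of the senescence-associated secretory phenotype.

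Since both feedback inhibitors and subunit genes are known to hold κB sites, the promoter windows of the members were searched for the κB consensus, a motif of 10 bases, on both strands. RefSeq windows (GRCh38.p14) run from 250 bases before to 50 bases after each annotated start. Entries were found for 8 of the 10 members (not for RELB and NFKBIE), in 14 windows, several genes having more than 1 start. The consensus was present in 9 of the 14 windows, against 3956 of all 35116 windows (11.3%). By gene, 7 of the 8 members held it, against 3619 of all 27305 genes with windows (13.3%). Neither RELA window held it. The stretches of 30 bases below show it once for each of 6 genes and at 2 starts of NFKB2, so that the sites can be set beside the changes that follow, read along the gene's own strand, with the bases of the motif in capitals.
NFKB1, chr4:102501300-102501329, plus strand: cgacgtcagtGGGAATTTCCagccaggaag
NFKB2, chr10:102394461-102394490, plus strand: gaaacgtcatGGGAATTCCCCcctccgggg
NFKB2, chr10:102395674-102395703, plus strand: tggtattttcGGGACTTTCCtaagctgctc
REL, chr2:60881517-60881546, plus strand: cgtcagccgcGGGAAATTCCCctcccgcca
NFKBIA, chr14:35404811-35404840, minus strand: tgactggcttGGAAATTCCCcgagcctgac
NFKBIB, chr19:38899931-38899960, plus strand: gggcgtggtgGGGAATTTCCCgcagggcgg
NFKBIZ, chr3:101827757-101827786, plus strand: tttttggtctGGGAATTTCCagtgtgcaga
TNFAIP3, chr6:137867188-137867217, plus strand: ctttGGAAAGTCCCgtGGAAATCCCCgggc
The motif began 49 bases upstream of the start in NFKB1, 47 in REL, 81 in NFKBIA, 28 in NFKBIB and 223 in NFKBIZ. In TNFAIP3 a pair of matches stood side by side from 67 bases upstream, both on the opposite strand, as was the match in NFKBIA. The NFKB2 stretches come from the second and the third of its starts, 107 and 21 bases upstream. Overlapping matches on both strands were merged into 1 capital run in the first NFKB2 stretch, REL and NFKBIB. NFKB2, NFKBIB and NFKBIZ held further matches that are not shown. A match describes the sequence and is not evidence of binding in these cells.

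By GENCODE v44 on GRCh38, the build named in the submitters' processing notes, the genes are protein-coding. NFKB1 lies at chr4:102501330-102617302, NFKB2 at chr10:102394110-102402524, REL at chr2:60881491-60931612, RELA at chr11:65653599-65663090 (minus strand) and RELB at chr19:45001461-45038192. NFKBIA lies at chr14:35401079-35404749 (minus strand), NFKBIB at chr19:38899700-38908893, NFKBIE at chr6:44258166-44265788 (minus strand), NFKBIZ at chr3:101827991-101861022 and TNFAIP3 at chr6:137867214-137883314.

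The libraries held 24624886 to 46224280 counts on genes. Transcripts of the 13 protein-coding mtDNA genes took 1.75% to 2.89% of counts in Prol and Sen(IR) libraries and 0.0461% to 0.237% in the 12 CCCP libraries. Replicate 2 of the combination stood apart, with 0.237% against 0.0640% and 0.0624% in the other 2 libraries of its group, and its counts differed from theirs by a chi-square of 21.9 to 25.4 per degree of freedom. Replicate 3 of Sen(IR) differed from its group by 20.4 to 26.2, whereas all other pairs of replicates lay between 2.67 and 7.20. Both libraries were kept, and results that change without them are given with the value without them. The 8 fibroblast markers (COL1A1, COL1A2, COL3A1, DCN, LUM, THY1, PDGFRB and VIM) were all tested, and their summed level, in CPM (a gene's counts relative to its library's total), was 37074 to 40792 CPM in Prol, 20345 to 25271 in Sen(IR) and 4709 to 6880 in the CCCP groups. The leukocyte markers summed to at most 2.89 CPM in any library, the epithelial to 3.36 and the endothelial to 0.345. The proliferation marker MKI67 averaged 59.1 CPM in Prol, 15.3 in Sen(IR) and 30.4 in Sen(IR)+CCCP. It averaged 3.19 CPM with acetate, 26.1 with mtDNA and 4.80 with the combination. CDKN1A (p21) averaged 698 CPM in Prol, 991 in Sen(IR) and 1100 in Sen(IR)+CCCP. It averaged 1852 CPM with acetate, 1150 with mtDNA and 1758 with the combination. The part of the loss of fibroblast transcripts, or of these 2 genes' differences, in the values below was not tested.

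Levels are given as CPM scaled by TMM, a normalization that assumes most genes do not change. Differences are log2 fold changes from edgeR's quasi-likelihood test on counts, with Benjamini-Hochberg adjustment over all 16994 genes, and "called" means an adjusted p under 0.05. In bulk RNA a lower level cannot tell fewer expressing cells from less RNA per cell. Because the change between conditions was broad, the share of all genes called is given beside each count of members.

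Between Sen(IR) and Prol, 6 of the 10 members were called, 4 inhibitors and 2 subunits, which is near the 56.7% of all genes called (26.7% higher, 29.9% lower). NFKB2, NFKBIA, NFKBIB and NFKBIZ rose, and REL and NFKBIE fell. The median log2 fold change was -0.0065 over the subunits and 0.34 over the inhibitors, beside -0.011 over all genes tested.

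With mitochondrial depletion 8 of the 10 members were lower. Between Sen(IR)+CCCP and Sen(IR), 9 were called, against 65.2% of all genes (34% higher, 31.3% lower). RELA was the 1 member that rose, and NFKBIB, with a log2 fold change of 0.22 ± 0.099 (SE, adjusted p = 0.0556), was not called. The median log2 fold change was -0.78 over the subunits and -0.76 over the inhibitors, beside 0.026 over all genes. Against Prol, all 10 members were called in Sen(IR)+CCCP, 8 lower and RELA and NFKBIB higher, against 69.2% of all genes (35.1% higher, 34.1% lower).

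Each add-back raised most of the members again. With acetate, all 10 members were called against Sen(IR)+CCCP, 9 higher and RELA lower, against 57.1% of all genes (28.8% higher, 28.3% lower). With mtDNA, 7 members were called and all 7 were higher, against 18.1% of all genes (10.7% higher, 7.4% lower). REL, RELA and NFKBIZ were the 3 not called. With the combination, all 10 were called, 9 higher and RELA lower, against 61.7% of all genes (30.3% higher, 31.4% lower). The median over the members was 0.87 with acetate, 0.34 with mtDNA and 1.25 with the combination, beside medians of 0.0054, 0.0029 and -0.036 over all genes. These 3 comparisons share the Sen(IR)+CCCP libraries.

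**Figure D1:**
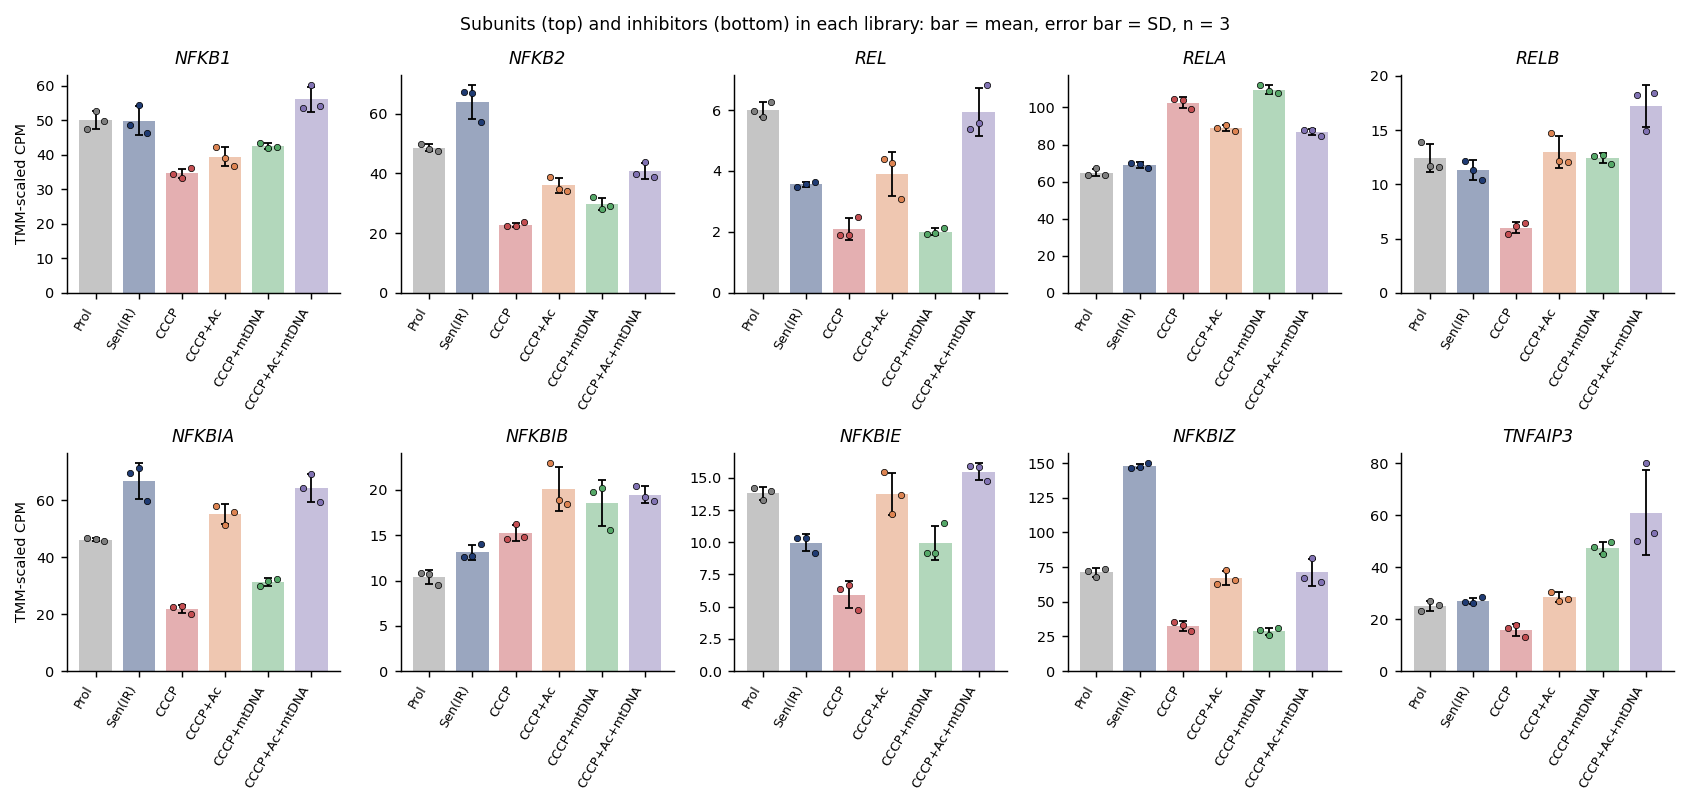
Level of each member (TMM-scaled CPM, vertical axis from 0) in the 6 groups, with subunits in the top row and inhibitors in the bottom row. Bars are means, error bars are SD over 3 libraries, points are libraries, and CCCP, CCCP+Ac, CCCP+mtDNA and CCCP+Ac+mtDNA stand for the 4 groups that received CCCP. Except for RELA and NFKBIB, each gene was lower in the CCCP group than in Sen(IR) in every library, and these 2 were higher in every library.

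RELA, the p65 subunit that carries a strong activation domain, had the highest TPM (a level per length, described further on) of the subunits in every group but Sen(IR), and it rose with depletion when 8 other members fell. Its level was 63.6, 67.3 and 63.7 CPM in the Prol libraries, 70.1, 69.4 and 67.1 in Sen(IR) and 105, 104 and 99.0 in Sen(IR)+CCCP. It was 89.0, 90.7 and 87.6 CPM with acetate, 112, 109 and 108 with mtDNA and 87.7, 87.8 and 84.6 with the combination. All CCCP libraries lay above all Sen(IR) and Prol libraries, and the acetate and combination libraries lay below those of depleted cells and of mtDNA. The rise with depletion was 0.58 ± 0.042 (SE, adjusted p = 7.99e-11) on the log2 scale, and the difference between Sen(IR) and Prol was 0.086 ± 0.043 (SE, adjusted p = 0.0942), not called. RELA was lower with acetate and with the combination, with log2 fold changes of -0.20 ± 0.042 (SE, adjusted p = 0.000257) and -0.24 ± 0.042 (SE, adjusted p = 3.48e-05) against Sen(IR)+CCCP. The mtDNA libraries were all above those of Sen(IR)+CCCP, with a log2 fold change of 0.095 ± 0.042 (SE, adjusted p = 0.132), not called. RELA in the combination stayed above Sen(IR), by 0.33 ± 0.043 (SE, adjusted p = 4.74e-07).

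NFKB2 encodes p100, the precursor of p52 and an inhibitor of RELB dimers in its unprocessed form. Its level was 49.9, 48.2 and 47.6 CPM in Prol, 67.3, 67.0 and 57.1 in Sen(IR) and 22.4, 22.4 and 23.6 in Sen(IR)+CCCP. It was 38.9, 34.9 and 34.2 CPM with acetate, 32.2, 28.2 and 29.0 with mtDNA and 39.7, 43.6 and 38.7 with the combination. Sen(IR) was the highest group and Sen(IR)+CCCP the lowest, with no overlap between either and its neighbour in the order. NFKB2 rose with senescence, with a log2 fold change of 0.39 ± 0.067 (SE, adjusted p = 3.28e-05), and fell with depletion, with -1.49 ± 0.07 (SE, adjusted p = 5.56e-14), the largest fall among the subunits. Against Sen(IR)+CCCP the log2 fold change was 0.65 ± 0.071 (SE, adjusted p = 6.19e-08) with acetate, 0.39 ± 0.073 (SE, adjusted p = 0.000599) with mtDNA and 0.83 ± 0.071 (SE, adjusted p = 1.43e-09) with the combination. No add-back brought it to the level of Sen(IR), and the combination lay lower, at a log2 fold change of -0.65 ± 0.068 (SE, adjusted p = 1.98e-08). Its difference between the combination and acetate, 0.18 ± 0.069 (SE, adjusted p = 0.0956), was not called, but was 0.24 (adjusted p = 0.0432) without replicate 1 of acetate. With all libraries this difference was called under DESeq2's size factors, another scaling (0.21, adjusted p = 0.0484), and by DESeq2's Wald test (0.21, adjusted p = 0.0434).

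NFKB1, the precursor of p50, changed least of the subunits between Prol and Sen(IR), with group means of 50.03 ± 2.57 and 49.9 ± 4.18 CPM (SD, n = 3) and a log2 fold change of -0.0065 ± 0.065 (SE, adjusted p = 0.941). Its mean fell to 34.6 ± 1.39 CPM in Sen(IR)+CCCP, a log2 fold change of -0.53 ± 0.065 (SE, adjusted p = 3.01e-07). It was 39.4 ± 2.75 CPM with acetate, 42.6 ± 0.837 with mtDNA and 56.1 ± 3.67 with the combination. The corresponding log2 fold changes against Sen(IR)+CCCP were 0.19 ± 0.065 (SE, adjusted p = 0.0193), 0.30 ± 0.066 (SE, adjusted p = 0.00258) and 0.70 ± 0.065 (SE, adjusted p = 5.99e-09). That with acetate was 0.16 (adjusted p = 0.0642) without replicate 1 of acetate. The combination was the highest of all 6 groups, and it exceeded acetate alone by 0.51 ± 0.065 (SE, adjusted p = 1.47e-05). Its excess over Sen(IR), 0.17 ± 0.064 (SE, adjusted p = 0.0251), came with overlapping libraries, and without replicate 2 of the combination it was 0.15 (adjusted p = 0.0538), without replicate 1 of Sen(IR) 0.16 (adjusted p = 0.0738) and without its replicate 3 0.12 (adjusted p = 0.114).

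REL (c-Rel), best known from lymphocytes, had the lowest TPM of the subunits in all 6 groups. Its level was 5.98, 5.78 and 6.26 CPM in Prol, 3.47, 3.57 and 3.65 in Sen(IR) and 1.90, 1.89 and 2.504 in Sen(IR)+CCCP. It was 4.39, 4.25 and 3.06 CPM with acetate, 1.92, 1.98 and 2.13 with mtDNA and 5.39, 5.57 and 6.83 with the combination. Prol and the combination were the highest groups and overlapped, and Sen(IR)+CCCP and mtDNA were the lowest and overlapped too. REL fell in both steps, with log2 fold changes of -0.76 ± 0.14 (SE, adjusted p = 7.89e-05) from Prol to Sen(IR) and -0.78 ± 0.16 (SE, adjusted p = 0.000154) from Sen(IR) to Sen(IR)+CCCP. It rose with acetate by 0.90 ± 0.15 (SE, adjusted p = 2.75e-05) and with the combination by 1.51 ± 0.15 (SE, adjusted p = 1.24e-08), whereas its log2 fold change with mtDNA was -0.043 ± 0.17 (SE, adjusted p = 0.907). Adding mtDNA to acetate gave a further 0.62 ± 0.14 (SE, adjusted p = 0.00408).

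RELB, the subunit of the non-canonical pathway that pairs with p52, fell with depletion and rose with each agent alone. Its level was 13.9, 11.7 and 11.6 CPM in Prol, 12.2, 11.4 and 10.4 in Sen(IR) and 5.44, 6.14 and 6.46 in Sen(IR)+CCCP. It was 14.7, 12.2 and 12.1 CPM with acetate, 12.7, 12.7 and 11.9 with mtDNA and 18.3, 14.96 and 18.4 with the combination. The Sen(IR)+CCCP libraries lay below all others. The log2 fold change was -0.92 ± 0.11 (SE, adjusted p = 1.62e-07) with depletion, 1.11 ± 0.11 (SE, adjusted p = 1.11e-08) with acetate, 1.05 ± 0.11 (SE, adjusted p = 3.52e-07) with mtDNA and 1.53 ± 0.11 (SE, adjusted p = 5.34e-11) with the combination. The neighbouring means of acetate, mtDNA, Prol and Sen(IR) were not called different from each other (adjusted p = 0.648, 0.974 and 0.312 down that order). The combination rose above acetate alone by 0.42 ± 0.098 (SE, adjusted p = 0.00633) and above Sen(IR) by 0.61 ± 0.10 (SE, adjusted p = 1.51e-05).

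The make-up of the subunit pool was set out per length, from the authors' TPM values, which correct each gene's counts for its length. RELA made up 33.6% ± 0.784 (SD, n = 3) of the summed TPM of the 5 subunits in Prol and 32.5% ± 1.30 in Sen(IR). In Sen(IR)+CCCP its share was 59.5% ± 1.71, with 46.3% ± 1.96 after acetate, 53.1% ± 0.416 after mtDNA and 39.6% ± 0.495 after the combination. NFKB2 had the largest share in Sen(IR), 36.6% ± 1.22, and 16.1% ± 0.513 after depletion. The RELB share was 9.59% ± 0.411 in Sen(IR), 6.28% ± 0.561 in Sen(IR)+CCCP and 14.2% ± 1.83 with the combination. NFKB1 kept a share of 17.5% ± 0.719 to 22.6% ± 1.07 in every group, and REL stayed at 1.32% ± 0.192 or less apart from 1.51% ± 0.0899 in Prol. The shares are descriptions and carry no test, and they add transcripts, not proteins. Sums of TPM are not scaled by TMM, and the median log2 difference of all genes tested between Sen(IR)+CCCP and Sen(IR) was 0.45 in TPM. The direction of a small change in a sum can therefore depend on the scale. The summed TPM of the subunits was 155 ± 7.32 (SD, n = 3) in Sen(IR) and 169 ± 0.989 in Sen(IR)+CCCP, while that of the 5 inhibitors was 271 ± 4.61 and 143 ± 11.9. Of these inhibitor sums, NFKBIZ alone made up 99.9 ± 2.45 in Sen(IR) and 29.5 ± 3.08 in Sen(IR)+CCCP. With acetate the sums were 176 ± 7.01 for subunits and 271 ± 9.86 for inhibitors, with mtDNA 192 ± 4.82 and 200.02 ± 3.38, and with the combination 196 ± 1.07 and 320.3 ± 28.0. In TPM the median log2 difference of all genes tested between the combination and Sen(IR) was 0.25. Equal or higher sums than in Sen(IR) thus do not by themselves mean a return to its level on the TMM scale.

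**Figure D2:**
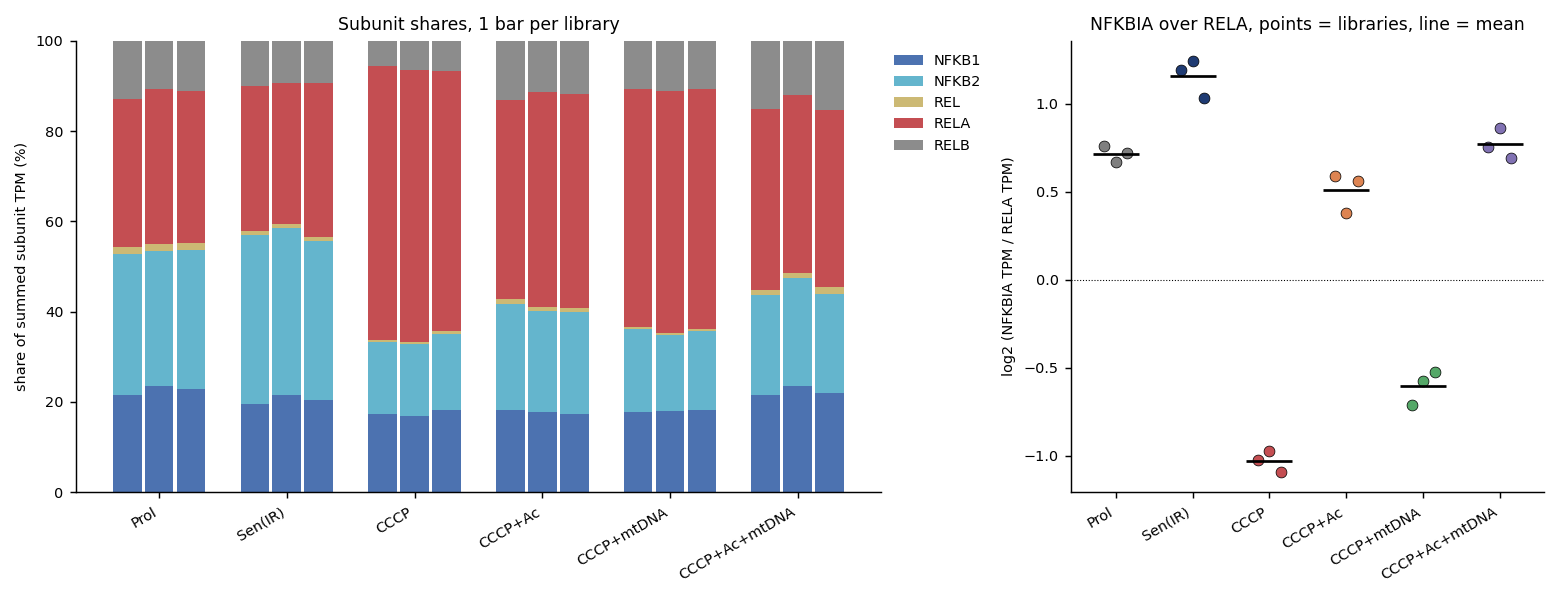
Left, share of each subunit in the summed TPM of the 5 subunits (%, 0 to 100), with 1 bar for each of the 18 libraries. Right, log2 of NFKBIA TPM over RELA TPM in each library (points) with the group mean (line). RELA took 57.5% to 60.6% of the pool in the Sen(IR)+CCCP libraries, and the ratio was below 0 only in Sen(IR)+CCCP and mtDNA libraries.

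NFKBIA encodes IκBα, the inhibitor that dimers of RELA and p50 induce against themselves. Its level was 46.7, 46.4 and 45.5 CPM in Prol, 69.5, 71.2 and 59.6 in Sen(IR) and 22.4, 23.0 and 20.2 in Sen(IR)+CCCP. It was 58.0, 51.2 and 56.0 CPM with acetate, 29.7, 31.7 and 32.5 with mtDNA and 64.2, 69.3 and 59.3 with the combination. Sen(IR) and the combination overlapped at the top, mtDNA lay below Prol, and Sen(IR)+CCCP lay below every other library. NFKBIA rose with senescence, with a log2 fold change of 0.53 ± 0.069 (SE, adjusted p = 9.96e-07), and fell with depletion, with -1.61 ± 0.073 (SE, adjusted p = 2.68e-14). It rose by 1.33 ± 0.072 (SE, adjusted p = 9.94e-13) with acetate, by 0.51 ± 0.075 (SE, adjusted p = 3.1e-05) with mtDNA and by 1.55 ± 0.073 (SE, adjusted p = 8.53e-14) with the combination. The combination differed from Sen(IR) by -0.056 ± 0.068 (SE, adjusted p = 0.487), not called. The added effect of mtDNA on top of acetate, 0.22 ± 0.068 (SE, adjusted p = 0.0341), was 0.17 without replicate 2 of the combination (adjusted p = 0.135), and its adjusted p was 0.0687 without replicate 1 of the combination, 0.167 without replicate 2 of acetate and 0.0729 without replicate 3 of acetate.

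The ratio of NFKBIA to RELA compares transcripts of the brake with those of the factor it holds, and protein was not measured. As log2 of TPM over TPM, it averaged 0.71 ± 0.045 (SD, n = 3) in Prol, 1.15 ± 0.11 in Sen(IR) and -1.03 ± 0.060 in Sen(IR)+CCCP. It averaged 0.51 ± 0.11 with acetate, -0.60 ± 0.096 with mtDNA and 0.77 ± 0.086 with the combination. The difference with depletion was -2.18, and the rises from there were 1.54 with acetate, 0.42 with mtDNA and 1.80 with the combination, all on the log2 scale. In each of the 9 comparisons of 2 groups the libraries did not overlap, and each gave p = 0.1 in an exact two-sided permutation test (adjusted p = 0.1 over the 9), the smallest that 3 libraries against 3 allow. This test of 3 against 3 cannot reach 0.05.

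NFKBIZ encodes IκBζ, an inducible nuclear IκB that acts on a subset of secondary response genes. It had the widest range of all members, with 72.2, 67.7 and 73.8 CPM in Prol, 147, 147 and 149.9 in Sen(IR) and 35.5, 32.9 and 29.0 in Sen(IR)+CCCP. It was 63.0, 73.1 and 65.7 CPM with acetate, 29.4, 25.7 and 30.7 with mtDNA and 67.2, 81.9 and 64.2 with the combination. Sen(IR) stood well above the rest, Prol, acetate and the combination overlapped in the middle, and Sen(IR)+CCCP and mtDNA overlapped at the bottom. The log2 fold change was 1.05 ± 0.081 (SE, adjusted p = 3.4e-10) with senescence and -2.18 ± 0.085 (SE, adjusted p = 2.64e-15) with depletion. Acetate raised NFKBIZ by 1.05 ± 0.084 (SE, adjusted p = 6.31e-10) and the combination by 1.12 ± 0.085 (SE, adjusted p = 1.91e-10), while mtDNA gave -0.19 ± 0.089 (SE, adjusted p = 0.164), not called. The combination stayed below Sen(IR), at -1.06 ± 0.081 (SE, adjusted p = 1.37e-10) on the log2 scale.

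TNFAIP3 encodes A20, a ubiquitin-editing enzyme that shuts off signalling upstream of IKK, and was the member most raised by mtDNA. Its level was 23.0, 27.0 and 25.3 CPM in Prol, 26.5, 26.1 and 28.3 in Sen(IR) and 16.7, 17.6 and 13.1 in Sen(IR)+CCCP. It was 30.6, 27.0 and 27.9 CPM with acetate, 47.7, 45.1 and 49.8 with mtDNA and 50.2, 80.1 and 53.0 with the combination. All mtDNA and combination libraries exceeded all others, and the combination's replicate 2 lay far above its partners. Senescence alone gave 0.10 ± 0.13 (SE, adjusted p = 0.519), not called, and depletion -0.76 ± 0.13 (SE, adjusted p = 3.51e-05). The log2 fold change against Sen(IR)+CCCP was 0.84 ± 0.13 (SE, adjusted p = 1.23e-05) with acetate, 1.58 ± 0.13 (SE, adjusted p = 1.34e-08) with mtDNA and 1.93 ± 0.13 (SE, adjusted p = 3.14e-11) with the combination. Above Sen(IR), TNFAIP3 was higher in the combination by 1.17 ± 0.13 (SE, adjusted p = 3.07e-08). The excess of the combination over mtDNA alone, 0.36 ± 0.12 (SE, adjusted p = 0.0165), was 0.13 without replicate 2 (adjusted p = 0.186), whereas that over acetate alone, 1.10 ± 0.12 (SE, adjusted p = 3.45e-06), ranged from 0.86 to 1.22 with any 1 library left out.

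NFKBIE (IκBε), an inhibitor with slower feedback, and NFKBIB (IκBβ), which is not a typical feedback gene, differed in course. NFKBIE averaged 13.8 ± 0.495 CPM in Prol (SD, n = 3), 9.97 ± 0.670 in Sen(IR) and 5.91 ± 1.05 in Sen(IR)+CCCP. It averaged 13.8 ± 1.65 CPM with acetate, 9.94 ± 1.32 with mtDNA and 15.5 ± 0.650 with the combination. It fell in both steps, with log2 fold changes of -0.47 ± 0.11 (SE, adjusted p = 0.00099) and -0.74 ± 0.12 (SE, adjusted p = 9.92e-06), and rose by 1.19 ± 0.11 (SE, adjusted p = 8.43e-09) with acetate, by 0.74 ± 0.12 (SE, adjusted p = 0.000113) with mtDNA and by 1.37 ± 0.11 (SE, adjusted p = 9.15e-10) with the combination. NFKBIB averaged 10.4 ± 0.759 CPM in Prol, 13.1 ± 0.826 in Sen(IR) and 15.2 ± 0.917 in Sen(IR)+CCCP, and 20.1 ± 2.46, 18.6 ± 2.55 and 19.5 ± 0.900 with acetate, mtDNA and the combination. It was called higher in Sen(IR) than in Prol, by 0.34 ± 0.10 (SE, adjusted p = 0.00824) (0.27, adjusted p = 0.0632, without replicate 3 of Prol), and with acetate over Sen(IR)+CCCP, by 0.39 ± 0.095 (SE, adjusted p = 0.00126). Its rise with mtDNA, 0.28 ± 0.097 (SE, adjusted p = 0.0487), came with overlapping libraries, and its adjusted p lay between 0.116 and 0.187 without replicate 1 or 3 of Sen(IR)+CCCP or replicate 1 or 2 of mtDNA. Without replicate 3 of Sen(IR), its rise with depletion was 0.27 (adjusted p = 0.0354).

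**Figure D3:**
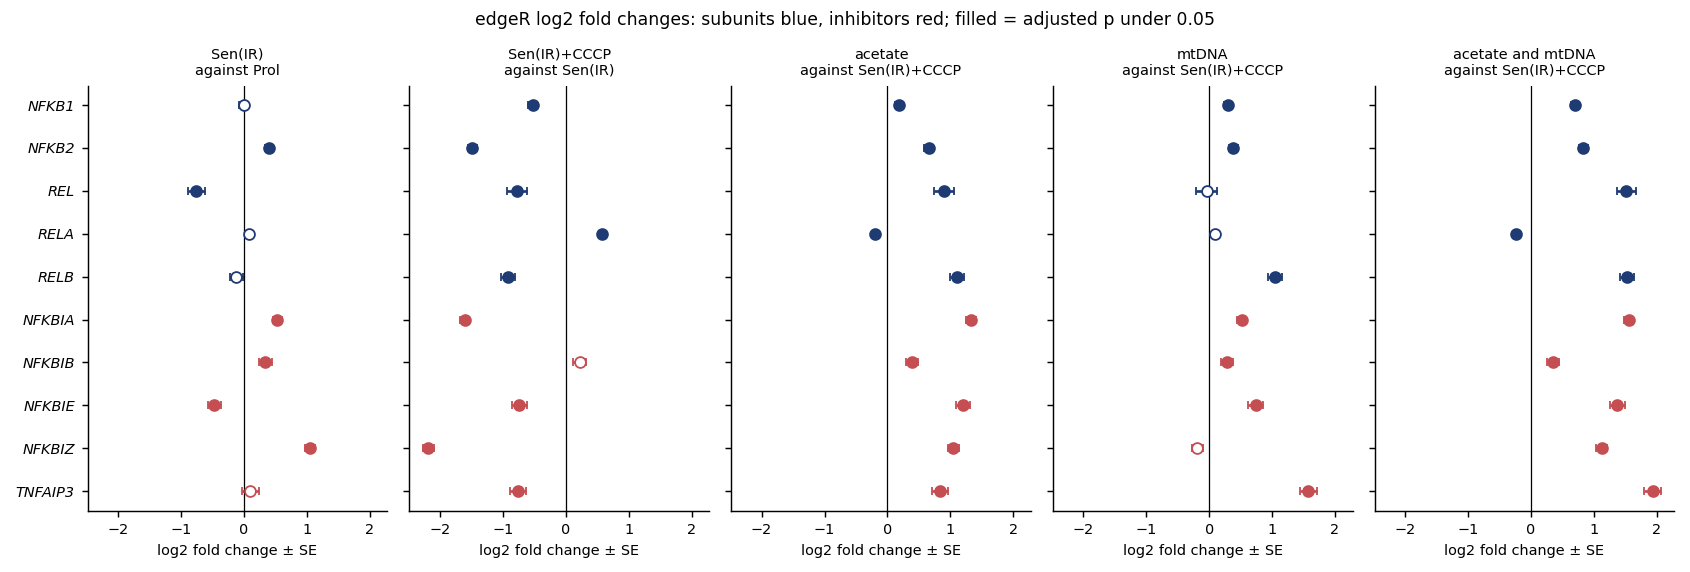
Log2 fold change of each member (horizontal axis, ± SE from edgeR) in 5 comparisons, with subunits in blue, inhibitors in red and filled points for an adjusted p under 0.05. With depletion 8 members lie left of 0 and past the threshold. With mtDNA the points of REL, RELA and NFKBIZ are open, and TNFAIP3 lies farthest right.

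The acetate and mtDNA groups were also compared directly, a contrast added after the values had been seen. These groups differ at once in agent, time of exposure and transfection, which cannot be told apart. Of the members, 7 were called, 5 higher with acetate and 2 higher with mtDNA, a count near the share of all genes called, 61.3% (30.3% higher with acetate, 31% lower). The log2 difference, acetate minus mtDNA, was 1.23 ± 0.086 (SE, adjusted p = 5.82e-11) for NFKBIZ, 0.94 ± 0.16 (SE, adjusted p = 2.14e-05) for REL and 0.81 ± 0.071 (SE, adjusted p = 2.21e-09) for NFKBIA. It was 0.46 ± 0.11 (SE, adjusted p = 0.00102) for NFKBIE and 0.27 ± 0.07 (SE, adjusted p = 0.00223) for NFKB2. TNFAIP3 and RELA were higher with mtDNA, with differences of -0.74 ± 0.12 (SE, adjusted p = 2.44e-05) and -0.30 ± 0.042 (SE, adjusted p = 2.46e-06). NFKB1, RELB and NFKBIB were not called, with differences of -0.11 ± 0.065, 0.056 ± 0.10 and 0.11 ± 0.095 (SE).

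The combination was next set against each agent alone, comparisons that share the combination's libraries. Over acetate alone, 5 members were called and all were higher (NFKB1, REL, RELB, NFKBIA and TNFAIP3), against 12.6% of all genes (6.57% higher, 6% lower). Over mtDNA alone, 9 were called, 8 higher and RELA lower, against 57.4% of all genes (27.4% higher, 29.9% lower). The largest of these were 1.56 ± 0.15 (SE, adjusted p = 1.58e-08) for REL and 1.31 ± 0.087 (SE, adjusted p = 2.79e-11) for NFKBIZ, followed by 1.04 ± 0.072 (SE, adjusted p = 5.36e-11) for NFKBIA. NFKBIB was not called in either comparison. Without replicate 2 of the combination the counts were 4 and 8. Against Sen(IR), 9 members were called in the combination, against 66.9% of all genes (32.2% higher, 34.7% lower). NFKB2 and NFKBIZ were lower there and 7 members higher, and NFKBIA was not called. Without replicate 2 of the combination, or without replicate 3 of Sen(IR), 8 were called.

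A term for the interaction asked whether mtDNA added the same on the log2 scale with and without acetate. RELB was the 1 member called, with -0.63 ± 0.15 (SE, adjusted p = 0.0497), against 0.659% of all genes (0.0765% higher, 0.583% lower). Alone, mtDNA raised RELB by 1.05 and on top of acetate by 0.42. The call was lost when any 1 of 11 of the 12 libraries was left out, the exception being replicate 2 of the combination. TNFAIP3 had an interaction of -0.48 ± 0.18 (SE, adjusted p = 0.282) and was not called, and without replicate 2 of the combination the value was -0.71 (adjusted p = 0.000333). With no filter on low counts, TNFAIP3 (-0.48, adjusted p = 0.000744) and NFKBIE (-0.56, adjusted p = 0.0142) were called beside RELB.

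The scale matters for how far the members fell. With libraries scaled by total counts only, an alternative added after the data were seen, the median of all genes tested shifted to 0.29 between Sen(IR)+CCCP and Sen(IR), and in the authors' TPM to 0.45, against 0.026 with TMM. The falls of the members were smaller on these scales, so that NFKB1 fell by 0.53 with TMM, 0.27 with total counts and 0.099 in TPM, and NFKBIA by 1.61, 1.35 and 1.18, all log2. RELA rose by 0.58, 0.84 and 1.00. The sign for each member with depletion, acetate and the combination against Sen(IR)+CCCP was the same on all 3 scales. Relative to the median of all genes on the same scale, NFKB1 fell by 0.55 in each case. Signs differed for NFKB1 between Sen(IR) and Prol, which was 0.087 with total counts and 0.074 in TPM, and for NFKBIA in the combination against Sen(IR), which was 0.027 and 0.24. With total counts, NFKB1 with acetate (0.064, adjusted p = 0.378) and NFKBIB with the combination (0.18, adjusted p = 0.118) were no longer called. The same held for NFKBIB with mtDNA (0.21, adjusted p = 0.141), for NFKBIA in the combination against acetate (0.17, adjusted p = 0.0793) and for TNFAIP3 in the combination against mtDNA (0.24, adjusted p = 0.0880). RELA in Sen(IR) against Prol (0.18, adjusted p = 0.00101), NFKBIB with depletion (0.48, adjusted p = 0.000228) and NFKBIZ with mtDNA (-0.26, adjusted p = 0.0493) were then called.

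The 20 target genes, a list of inflammatory and survival genes known to be induced by NF-κB, included 18 that were tested (BCL2A1 and TNF were too low). The list was chosen with earlier results of these data known. It holds IL6 and CCL2, which the study reports as reduced after mitochondrial clearance, so its counts only describe these genes. Of the 18, 14 were higher and 2 lower in Sen(IR) than in Prol, beside 26.7% and 29.9% of all genes. All 18 were lower in Sen(IR)+CCCP than in Sen(IR), where 31.3% of all genes were lower. Against Sen(IR)+CCCP, 16 were higher and 1 lower with acetate, 14 higher with mtDNA and 17 higher with the combination, where 28.8%, 10.7% and 30.3% of all genes were higher. The 1 lower with acetate, singled out after its values were seen, was the monocyte chemokine CCL2, at 4.34 ± 0.542 CPM (SD, n = 3) in Sen(IR)+CCCP and 2.15 ± 0.859 with acetate. In the combination against Sen(IR), 12 of the 18 were lower and 4 higher, beside 34.7% and 32.2% of all genes. Their median log2 fold change was -0.73, over all 18. The median over the targets was -3.72 with depletion, 2.07 with acetate, 0.99 with mtDNA and 2.71 with the combination, beside 0.026, 0.0054, 0.0029 and -0.036 over all genes. CXCL8, the neutrophil chemokine interleukin-8, was at 13.4 ± 0.895 CPM in Sen(IR)+CCCP (SD, n = 3), 349 ± 59.3 with acetate and 474 ± 56.4 with the combination. ICAM1, an adhesion molecule, was at 8.33 ± 0.663, 171 ± 26.0 and 273 ± 52.0 CPM in the same groups. VCAM1, another adhesion molecule, was at 316 ± 37.8 CPM in Sen(IR) and 1.28 ± 0.272 in Sen(IR)+CCCP, and at 19.3 ± 10.6 with the combination. IL6 was at 18.2 ± 0.396 CPM in Sen(IR)+CCCP, 63.99 ± 9.05 with mtDNA and 213 ± 37.8 with the combination.

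Upstream of the members, 4 kinase subunits and kinases were tested, IKBKB, CHUK, IKBKG and MAP3K14. In Sen(IR) 2 of the 4 were lower than in Prol, where 29.9% of all genes were lower. With acetate 2 were higher than in Sen(IR)+CCCP, where 28.8% of all genes were higher. In Sen(IR)+CCCP against Prol 3 were called, 1 higher and 2 lower, beside 69.2% of all genes called. In the combination against Sen(IR) 3 were called, 2 higher and 1 lower, beside 66.9% of all genes. CHUK (IKKα) was the 1 called with depletion, rising by 0.57 ± 0.05 (SE, adjusted p = 1.48e-09), beside 65.2% of all genes called. With mtDNA or the combination none was called against Sen(IR)+CCCP, beside 18.1% and 61.7% of all genes. For the combination 1 was called without replicate 3 of Sen(IR)+CCCP or without replicate 1 or 3 of the combination. MAP3K14 (NIK), the kinase of the non-canonical arm, went from 14.7 ± 0.0816 CPM in Prol to 3.16 ± 0.0325 in Sen(IR), a log2 fold change of -2.22 ± 0.092 (SE, adjusted p = 1.4e-14). Of 8 receptors, 6 were lower with depletion, beside 31.3% of all genes. With acetate 3 were higher and 4 lower, beside 28.8% and 28.3% of all genes. With mtDNA 4 were higher, beside 10.7% of all genes. Among these 4 was the double-stranded RNA sensor TLR3, at 1.83 ± 0.0309 CPM in Sen(IR)+CCCP and 14.98 ± 4.53 with mtDNA. Of 18 adaptors and kinases, 5 were higher and 8 lower with depletion, 72.2% of the list beside 65.2% of all genes. With acetate 10 were higher and 3 lower, also 72.2%, beside 57.1% of all genes. With mtDNA 9 were higher, 50% beside the 18.1% of all genes called. MYD88, the adaptor of interleukin-1 and Toll-like receptors, fell with acetate, with a log2 fold change of -0.85 ± 0.20 (SE, adjusted p = 0.000966), and rose with mtDNA, with 1.88 ± 0.19 (SE, adjusted p = 1.73e-07). IRAK2, its inducible partner kinase, fell with depletion, with a log2 fold change of -1.42 ± 0.079 (SE, adjusted p = 7.48e-13), and rose with acetate, with 0.80 ± 0.079 (SE, adjusted p = 1.58e-08).

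Among 15 other inhibitors and partners of A20, 6 were higher and 6 lower with depletion, 80% of the list beside 65.2% of all genes. With acetate 10 were higher, 66.7% beside 57.1% of all genes called. TNIP1 (ABIN1), which works with A20, was at 277 ± 21.9 CPM in Sen(IR) and 82.2 ± 3.35 in Sen(IR)+CCCP, a log2 fold change of -1.75 ± 0.058 (SE, adjusted p = 2.38e-16). It rose with acetate by 1.13 ± 0.057 (SE, adjusted p = 2.82e-13) and with mtDNA by 0.35 ± 0.057 (SE, adjusted p = 0.000122). CYLD, a deubiquitinase that restrains the pathway, rose with acetate by 1.06 ± 0.045 (SE, adjusted p = 2.04e-14). ZC3H12A (regnase-1), a ribonuclease that degrades inflammatory messages, was at 25.7 ± 2.23 CPM in Sen(IR), 2.58 ± 0.589 in Sen(IR)+CCCP and 6.204 ± 1.59 with the combination.

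**Figure D4:**
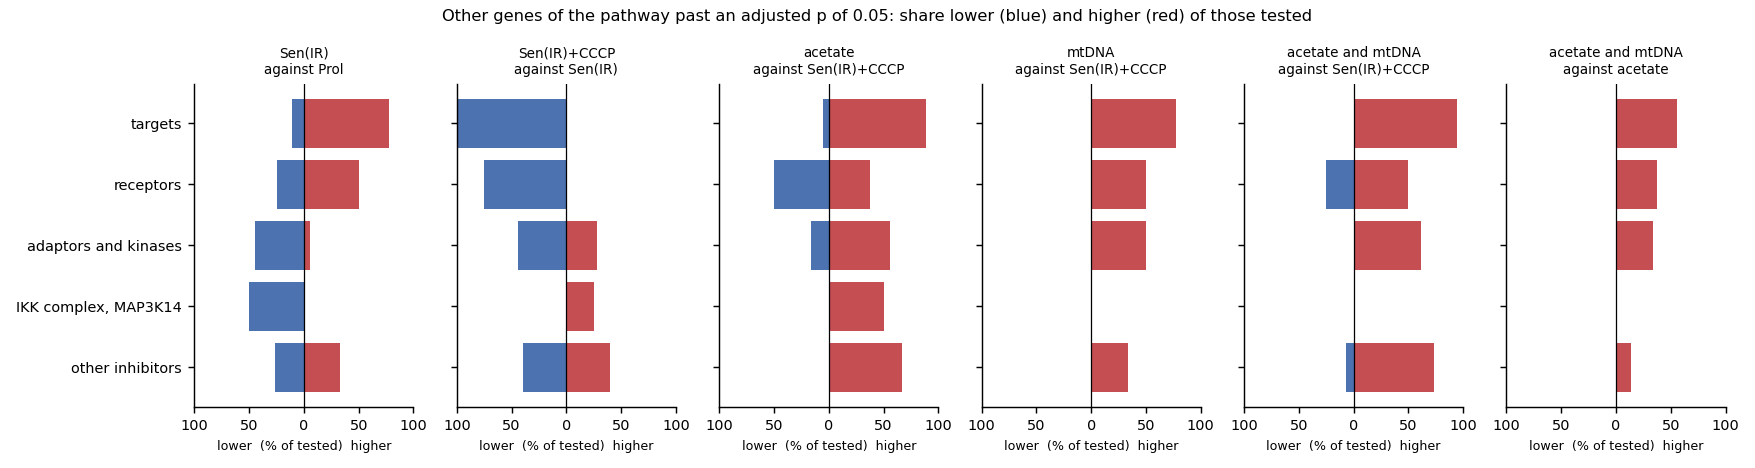
Share of each list of other pathway genes (% of those tested) past an adjusted p of 0.05 in edgeR, with lower genes to the left in blue and higher genes to the right in red, in 6 comparisons. The 18 targets are all on the left with depletion, and the 4 kinase subunits and kinases have no bar with mtDNA or the combination.

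For the subunit and the inhibitor with the widest range of group means, the genes of most similar course over the 18 libraries were sought among all genes tested. For REL these were FN1 (Pearson r = 0.954 of log2 CPM), SCN9A (0.951) and PIK3C3 (0.948). For NFKBIZ they were OLR1 (0.985), NAP1L5 (0.981) and ARMCX3 (0.980). The 18 points share 6 group means, so these values describe likeness between group patterns.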

How the data were processed

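Per the labels, poly(A) libraries of IMR90 cells were sequenced as read pairs. The submitters' processing notes name Trimmomatic 0.36, STAR 2.5.2b, featureCounts from Subread 1.5.2 and GRCh38. The authors deposited raw counts per gene and, from them, TPM, which are levels per length. Per the study's methods, strand-specific libraries were counted with regard to strand, but whether these libraries were of that kind is not stated, so reads of overlapping genes on opposite strands may be shared. edgeR 4.0.16 (R 4.3.3) was run on all 18 libraries together (quasi-likelihood test, 1 mean for each of 6 groups) after TMM normalization and filterByExpr, which left 16994 genes. The common biological coefficient of variation was 0.0644. Of the contrasts, 10 were planned, and the other pairs of groups, among them acetate against mtDNA, were tested in the same fit, with a threshold of 0.05 after Benjamini-Hochberg adjustment in each. The ratio of NFKBIA to RELA was tested by exact permutation (scipy 1.17.1), and subunit shares were only described. The fit was tested on simulated counts. Members and lists were chosen with earlier results of these data known. Of the other pathway genes, those named are among the 3 largest changes of their list in a comparison, at 1 CPM or more in 1 group. Alternatives were DESeq2 1.42.0, other scalings and filters, the groups compared alone, a replicate block and leaving out each library.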

Additional observations from a re-analysis of the deposited data

Results flagged for a closer look

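RELB was flagged because its change with mtDNA differed with and without acetate. The interaction was -0.63 ± 0.15 on the log2 scale (SE, edgeR quasi-likelihood test, adjusted p = 0.0497). Alone, mtDNA raised RELB by 1.05 on the log2 scale, and on top of acetate by 0.42, with higher levels in all 3 libraries against all 3 in both cases. DESeq2's Wald test also called it, whereas the adjusted p was 0.0740 with DESeq2's size factors, 0.0510 with total counts and 0.0522 with at least 10 counts in every library. It was 0.0613 in the 4 groups alone and 0.0347 with a replicate block. Groups of 3 libraries are too small for a test of single outlying libraries.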

How the results depend on the processing

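The number of members called stayed within 1.5 times its main value for all 9 comparisons of 2 groups under DESeq2's size factors and Wald test, total counts, no filter, at least 10 counts in every library, only the groups compared and the replicate block. The study's rule (DESeq2, nominal p under 0.05 and an absolute log2 fold change above 0.5) is stated for another comparison, with the inhibitor CTPI2. Applied here, it gave 3 members for Sen(IR) against Prol, 4 for mtDNA against Sen(IR)+CCCP, 3 for the combination against acetate and 5 against mtDNA. It gave 7 for acetate and 8 for the combination against Sen(IR)+CCCP, and 7 for the combination against Sen(IR). Sen(IR)+CCCP kept 9 against Sen(IR) and 10 against Prol. The interaction, 1 member in the main fit, gave 0 with DESeq2's size factors, total counts, at least 10 counts or only the groups compared, 3 without a filter or by the study's rule, and 0 to 2 with 1 library left out. Those added to RELB were TNFAIP3 and NFKBIE without a filter, and REL (0.69) and NFKBIE (-0.53) by the study's rule. The NFKBIA to RELA ratio kept its direction in all 9 comparisons with a pseudocount of 1, with TMM-scaled CPM, paired by replicate number, and with each library left out. Subunit shares from raw counts differed from TPM shares by more than 1 SD in 29 of 30 cases, since counts are not per length.

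Signs turned only for small changes that were not called. NFKB1 in Sen(IR) against Prol was 0.0029 with DESeq2's size factors, 0.087 with total counts, 0.015 with at least 10 counts, 0.035 in the 2 groups alone, 0.074 in TPM and -0.094 to 0.037 with 1 library left out. NFKBIA in the combination against Sen(IR) was 0.027 with total counts, 0.24 in TPM and -0.13 to 0.028 with 1 library left out. NFKBIB in the combination against mtDNA was -0.035 with total counts and -0.024 to 0.16 with 1 library left out, and against acetate -0.093 to 0.065. With 1 library left out, REL with mtDNA ranged from -0.11 to 0.096, and NFKBIZ in the combination against acetate from -0.035 to 0.15. The cause of these turns was not tested.

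Same-numbered libraries did not deviate together (correlations from -0.082 to 0.092 over 45 pairs of libraries, none over 0.1). No pairing by number was thus seen, but this cannot show whether same-numbered libraries came from the same experiment. With a replicate block, 10 members were called between Sen(IR)+CCCP and Sen(IR) instead of 9 (NFKBIB, 0.22, adjusted p = 0.0452), and the other counts were as without it. REL, the member with the fewest reads in the CCCP groups, had SEs of up to 0.17 log2 between 2 groups, against at most 0.043 for RELA.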
